A study of Mus musculus with 4 samples.

Results

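The genes described here are 36 mouse genes for the contractile actin cytoskeleton: actins, myosin subunits, tropomyosins, the thin-filament proteins of smooth muscle, the crosslinkers and adhesion adaptors of stress fibres, and the transcription factors Srf and Myocd. They were taken as a list by name. For each gene the brightest probe set on the array that named that gene and no other was used, by mean log2 signal over all arrays. All 36 genes had such a probe set, out of 18193 genes on the array, and 35 passed a signal filter (a mean log2 signal above 6.13). Myocd was below it.

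Actin filaments carry tropomyosin along their length, and in smooth muscle also calponin, transgelin and caldesmon. Myosin pulls on them when the kinase encoded by Mylk has phosphorylated the regulatory light chain. In stromal cells the same parts form stress fibres, anchored at focal adhesions through alpha-actinin, vinculin, zyxin and LIM-domain proteins. Serum response factor (Srf) and its coactivators of the myocardin family drive many of these genes. Some of these coactivators sense the pool of unpolymerised actin. Preadipocytes are spread, stress-fibre-rich cells, and adipocyte conversion is known to go along with loss of stress fibres.

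Cultures of brown-like adipocytes came from Lgr4 homozygous mutant mice (2 arrays) and from wild-type mice (2 arrays). Lgr4 encodes a cell-surface partner of R-spondins, which strengthen Wnt signalling. All donors were male and 4 months old. In both genotypes, stromal vascular cells of epididymal fat (eWAT SVF, a mixture that can hold fibroblasts, mural, immune and vascular cells) were grown with bFGF. Induction took 48 h in insulin, IBMX, dexamethasone, T3 and troglitazone, and insulin, T3 and troglitazone were kept on for a further 6 days. The labels name the arrays biological replicates but do not say whether different animals or dishes stand behind them. The p-values therefore reflect the spread among these 4 arrays alone, and that spread may be technical. What the mutation is could not be taken from the labels.

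Across the array, limma called 3924 of 13173 tested genes at an adjusted p of 0.05 (29.8%). Lgr4 itself read 6.18 and 6.09 in mutant cultures, against 8.65 and 8.20 in wild-type cultures, as log2 signal. As for the labelled cell type, all 13 adipocyte markers with a value were above the filter and all 13 were higher in the mutant. Pparg, the regulator of adipogenesis, averaged 10.83 ± 0.026 in mutant and 7.91 ± 0.27 in wild-type cultures (SD, n = 2 each). Adipoq, which encodes adiponectin, averaged 14.47 ± 0.025 in mutant and 11.25 ± 0.013 in wild-type cultures (SD, n = 2 each).

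Contractile genes fell in the mutant cultures, and no member rose. Of the 35 tested, 19 were lower (54.3%), 0 were higher and 16 did not pass. Over all genes tested, 18.7% were called lower and 11.1% higher. At an unadjusted p under 0.05 in limma, 23 members were lower (65.7%) and 0 higher, beside 26.4% lower and 15.4% higher over all genes tested. The members' median log2 difference, mutant minus wild-type, was -0.43, beside -0.03 over all genes tested. It was -0.28 when all probe sets of a gene were averaged. The falls were moderate: they ran from 1.26-fold (Mylk) to 2.47-fold (Synpo2), and 2 of the 19 reached 2-fold, Synpo2 and Myl9. In 27 members the mutant values lay below both wild-type values and in 1, Myl6, above them. The shares over all genes tested were 39.9% below and 28.9% above. In bulk cultures, fewer cells of a type and less RNA per cell cannot be told apart.

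**Figure D1:**
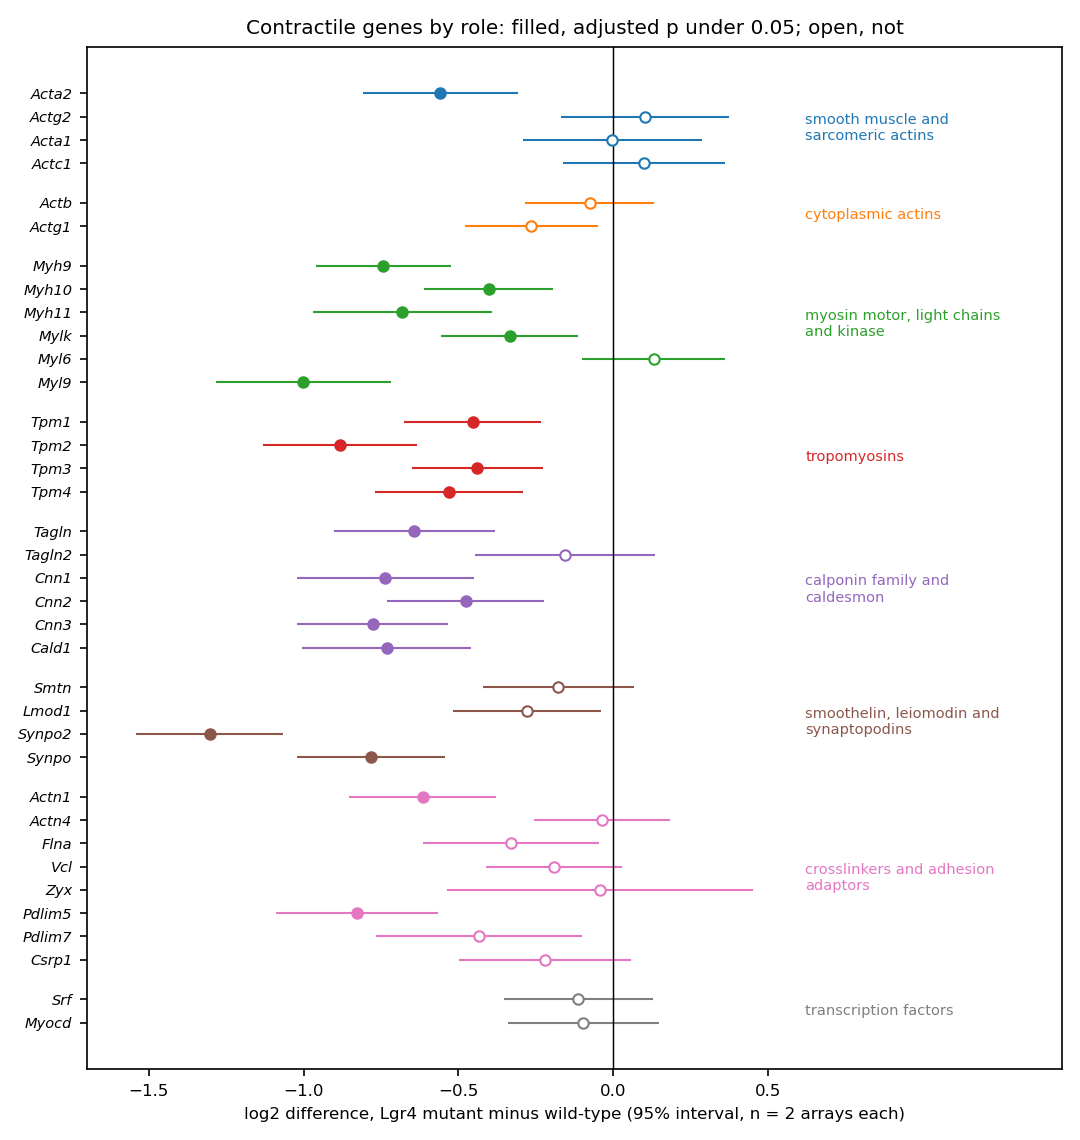
Log2 difference between Lgr4 mutant and wild-type cultures (x axis) for each of the 36 genes (y axis, grouped and coloured by role). Points are limma estimates from 2 arrays per genotype, bars are 95% intervals, and filled points passed an adjusted p of 0.05; all 19 filled points lie between -1.30 and -0.33, and the 4 tropomyosins are all filled.

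**Figure D2:**
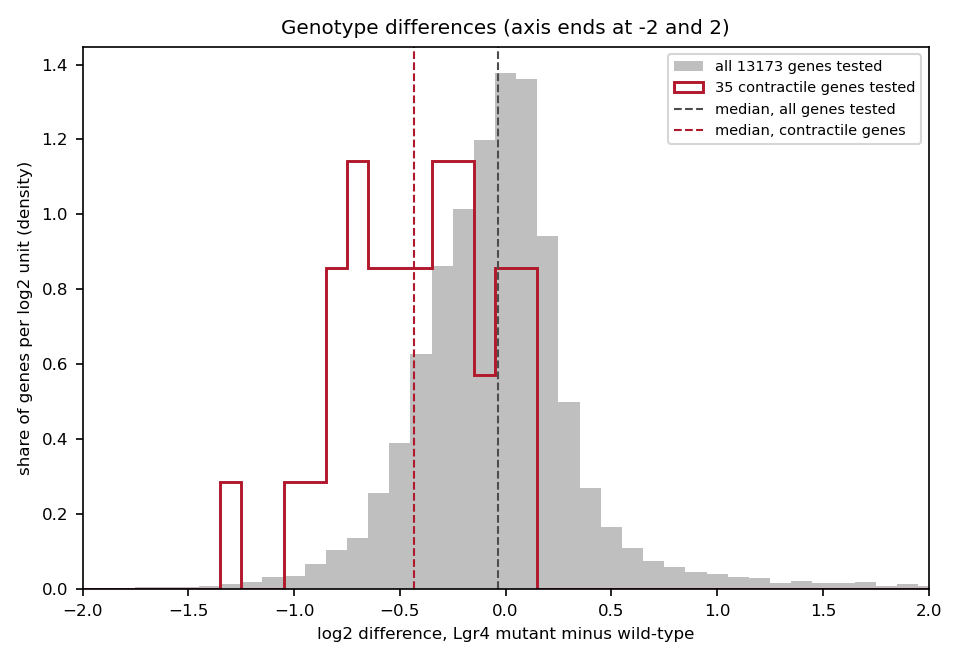
Distribution of log2 differences, mutant minus wild-type, over all 13173 genes tested (grey) and over the 35 contractile genes tested (red outline), each as a density, with the axis ending at -2 and 2. Dashed lines are the medians, -0.03 for all genes and -0.43 for the contractile genes; no contractile gene exceeds 0.13.

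Leaving out either mutant array lowered the number of calls, both among the members and over all genes. In such a fit the spread within groups came from the wild-type pair alone. Without mutant replicate 1, 10 members were called lower (28.6%), beside 7.91% of all genes tested. Without mutant replicate 2, 16 members were called lower (45.7%), beside 8.9% of all genes. The calls of Myh10, Mylk and Tpm3 ended without either mutant array, while the differences of Myh10 and Tpm3 stayed at -0.40 and -0.44. Those of Acta2, Myh11, Tpm1, Tpm4, Tagln and Cnn2 ended without mutant replicate 1 and not without replicate 2. Mutant replicate 1 held the lowest of the 4 values in 16 of the 19 genes that fell, and mutant replicate 2 in the other 3. Over the 35 tested members, replicate 2 exceeded replicate 1 in 26 within the mutant pair (74.3%) and in 18 within the wild-type pair (51.4%), while over all genes tested these shares were 49.1% and 51.8%. Leaving out a wild-type array gave 26 members called lower (without replicate 1, beside 22.9% of all genes) and 21 (without replicate 2, beside 28.3%).

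**Figure D3:**
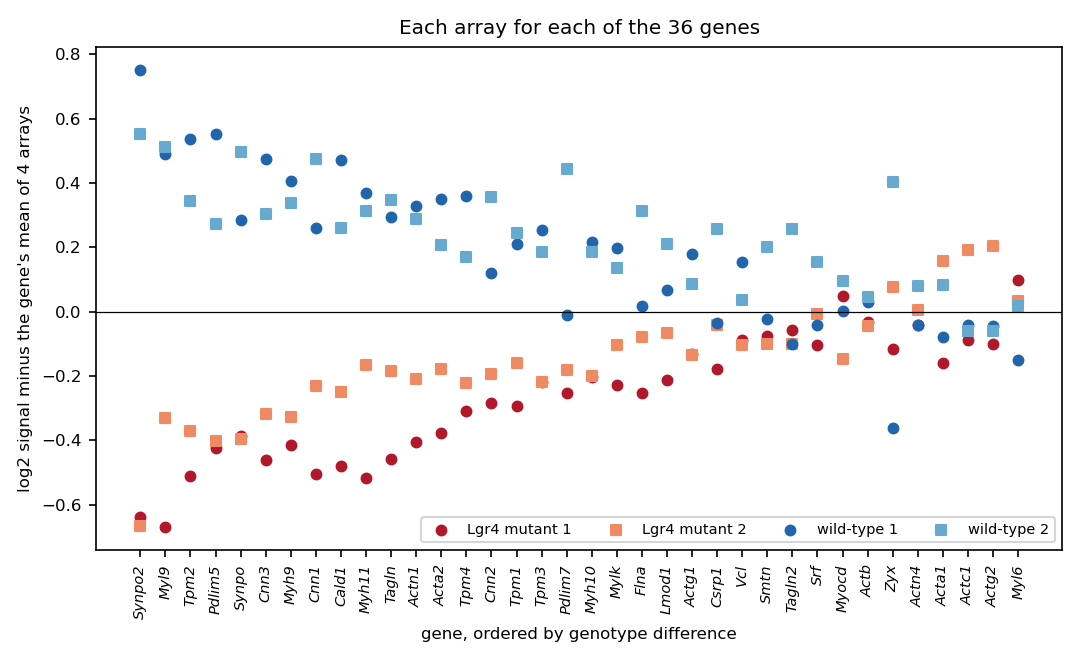
Log2 signal of each array minus the gene's own mean over the 4 arrays (y axis), for the 36 genes ordered by genotype difference (x axis); red and orange mark the mutant arrays, dark and light blue the wild-type arrays. Both mutant arrays lie below both wild-type arrays for all 19 genes that fell, and for Zyx the wild-type arrays lie on either side of the mutant arrays.

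The transcription factors upstream of this gene set did not pass. Srf read 8.31 and 8.40 in mutant cultures, against 8.37 and 8.56 in wild-type cultures, so the groups overlapped. Its difference was -0.11 (95% interval -0.35 to 0.13, adjusted p = 0.451). A second Srf probe set differed by 0.17, so the pair of probe sets disagreed in sign. Myocd, the myocardin of smooth and cardiac muscle, read 5.75 and 5.55 in mutant cultures and 5.70 and 5.79 in wild-type cultures, below the filter in all 4 arrays. In the fit without the filter its difference was -0.10 (interval -0.34 to 0.15). Of the other myocardin-family coactivators, which were no members, Mrtfa did not pass (-0.17, adjusted p = 0.393). Mrtfb differed by -0.30 (SE 0.098, adjusted p = 0.0488), a call that ended under 7 of the 12 alternatives, and the mean of its probe sets differed by 0.057 (adjusted p = 0.653). Both were named after their values were seen.

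Srf binds the CArG box, a 10-letter element that reads alike on both strands, and promoter windows show which members carry it close to their start. RefSeq windows (GRCm38.p6, 250 bases before to 50 after the start) were at hand for 30 of the 36 genes. Actb, Actg2, Myh11, Tagln, Synpo and Myocd had none, and of these Myh11, Tagln and Synpo fell. An intact CArG box stood in the window of 8 of these 30 genes (26.7%), against 1.81% of all 27025 genes with a window. With at most 1 departure allowed, the counts were 14 of 30 genes (46.7%) and 23.8%. Of the 8 genes, 2 fell (Cnn2 and Myl9) and 6 did not pass (Acta1, Actc1, Actg1, Myl6, Srf and Vcl). Among the 16 genes with a window that fell, 2 held an intact box (12.5%), as did 6 of the 14 that did not pass (42.9%). With at most 1 departure allowed, these counts were 6 of 16 (37.5%) and 8 of 14 (57.1%). A match is a description of letters and not a bound site, and boxes outside these windows were not searched.

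The stretches around these boxes are printed 5′ to 3′ on the gene's strand, with the CArG box in capitals and 20 bases on either side, because the same element stands before genes that fell and genes that did not pass.
Myl9 (chr2:156775283-156775332, plus strand, fell): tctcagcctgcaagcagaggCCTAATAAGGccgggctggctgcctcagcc
Cnn2 (chr10:79988524-79988573, plus strand, fell): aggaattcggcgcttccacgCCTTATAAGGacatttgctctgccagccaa
Vcl (chr14:20929151-20929200, plus strand, not past the test): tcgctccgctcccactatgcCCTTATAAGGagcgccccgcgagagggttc
Actg1 (chr11:120348556-120348605, minus strand, not past the test): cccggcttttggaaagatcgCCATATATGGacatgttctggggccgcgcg
Acta1 (chr8:123894819-123894868, minus strand, not past the test): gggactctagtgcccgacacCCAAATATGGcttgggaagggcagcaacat
Actc1 (chr2:114052893-114052942, minus strand, not past the test): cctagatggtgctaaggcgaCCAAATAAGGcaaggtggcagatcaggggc
Myl6 (chr10:128493030-128493079, minus strand, not past the test): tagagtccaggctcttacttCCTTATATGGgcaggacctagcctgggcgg
Srf (chr17:46556195-46556264, minus strand, not past the test): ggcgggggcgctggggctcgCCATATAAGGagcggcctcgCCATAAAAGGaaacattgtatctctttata

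Cnn2 and Vcl carried the same CCTTATAAGG, 56 bases before the start in Cnn2 and 227 in Vcl, and Srf carried 2 boxes, at 82 and 62 bases before its own start. The TEAD motif CATTCC (either strand) stood in the windows of 12 of the 30 genes (40%), against 16.6% of all genes with a window. By outcome these were 5 of the 16 that fell and 7 of the 14 that did not pass. The TATA motif TATAAA (either strand) stood in 7 of 30 (23.3%), against 15.7%. No CArG box overlapped either motif in these windows.

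Among the actins, the smooth muscle alpha-actin Acta2 fell and the other 5 did not pass. Acta2, the marker of smooth muscle and myofibroblasts, read 13.49 and 13.69 in mutant cultures, against 14.22 and 14.07 in wild-type cultures. The groups did not overlap, and the difference was -0.56 (SE 0.11, adjusted p = 0.00648), or 1.47-fold lower. It was -0.46 without mutant replicate 1 and then did not pass (adjusted p = 0.0833). A second Acta2 probe set above the filter fell by 0.85. Actg2, the enteric smooth muscle gamma-actin, read 9.86 and 10.16 in mutant cultures and 9.91 and 9.90 in wild-type cultures, with a difference of 0.10 (interval -0.17 to 0.38). The groups overlapped for Actg2, and also for the skeletal actin Acta1 (-0.00, interval -0.29 to 0.29) and the cardiac actin Actc1 (0.10, interval -0.16 to 0.36). These intervals do not reach the -0.56 of Acta2, but the differences between these genes were not tested.

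The cytoplasmic actins, which form the filaments of all cells, differed little. Actb, the beta-actin often used as a loading control, averaged 14.69 ± 0.0077 in mutant and 14.77 ± 0.011 in wild-type cultures (SD, n = 2 each; -0.08, adjusted p = 0.557). Its signal was close to the highest on any array, 15.2. Control probe sets at the 3′ end, the middle and the 5′ end of the Actb transcript differed by -0.10, -0.13 and -0.12. The same controls for Gapdh differed by 0.25, 0.29 and 0.27, so within each transcript the genotype difference was alike at both ends. Actg1, the gamma-actin, read 13.84 and 13.83 in mutant cultures, below 14.15 and 14.06 in wild-type cultures. Its difference of -0.26 (interval -0.48 to -0.05) did not pass (adjusted p = 0.0653). It passed with an intensity trend in limma (adjusted p = 0.00769), without wild-type replicate 2 (0.0165) and when arrays were centred on their medians (0.0418), but not under the other 9 alternatives.

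Paralogous actin messages are close in sequence, and the design of a probe set bears on what it reads. By the array's naming, the probe sets used for Acta2, Actg1, Myh9, Cald1 and Srf (suffix s) hold probes shared by several transcripts, and that for Cnn3 (suffix x) holds probes similar to other sequences. Signal in these may include related genes. Genotype differences were taken within a probe set. Sums over a list, used for cell type markers, add the signals of different probe sets and were set against the same sum on the other arrays.

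Of the 6 genes for myosin heavy chains, light chains and the light chain kinase, 5 fell. Myl9, the regulatory light chain of smooth muscle and non-muscle myosin, read 11.61 and 11.94 in mutant cultures and 12.77 and 12.79 in wild-type cultures. This 2.0-fold fall (-1.0, SE 0.12, adjusted p = 6.62e-04) was the largest of the group. Myh9, the heavy chain of non-muscle myosin IIA, read 12.16 and 12.25 in mutant cultures, against 12.98 and 12.91 in wild-type cultures (-0.74, SE 0.095, adjusted p = 7.90e-04). All 5 Myh9 probe sets fell, by 0.36 to 0.90. For both genes every mutant value lay well below every wild-type value.

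Myh11, the smooth muscle heavy chain, read 8.79 and 9.14 in mutant cultures and 9.67 and 9.61 in wild-type cultures (-0.68, SE 0.13, adjusted p = 0.00512). Its second probe set differed by -0.03 and did not pass. Myh10, the heavy chain of non-muscle myosin IIB, read 11.04 on both mutant arrays and 11.45 and 11.42 on the wild-type arrays (-0.40, adjusted p = 0.0124). Mylk, the light chain kinase, read 11.56 and 11.69 in mutant cultures and 11.99 and 11.93 in wild-type cultures (-0.33, adjusted p = 0.0329). The genotypes did not overlap in either gene, but the calls were the least firm of this role: each was lost without either mutant array and on averaging the gene's probe sets. Myl6, the essential light chain, read 9.27 and 9.20 in mutant cultures and 9.02 and 9.19 in wild-type cultures. The mutant values were the higher ones there, but the difference of 0.13 (interval -0.10 to 0.36) did not pass.

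All 4 tropomyosin genes fell. Tpm2 (beta-tropomyosin) read 12.59 and 12.74 in mutant cultures and 13.64 and 13.45 in wild-type cultures, a 1.84-fold fall (-0.88, SE 0.11, adjusted p = 6.56e-04). Of its 4 probe sets 3 fell, by 0.87 to 0.90, and the other differed by 0.23. Tpm4 read 12.80 and 12.89 in mutant cultures and 13.47 and 13.28 in wild-type cultures (-0.53, adjusted p = 0.00674). In neither gene did the genotypes overlap.

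Tpm1 (alpha-tropomyosin) read 11.75 and 11.88 in mutant cultures and 12.25 and 12.28 in wild-type cultures (-0.45, adjusted p = 0.00964). Its other 2 probe sets above the filter differed by -0.35, which passed, and by -0.32, which did not. Tpm3 read 12.53 on both mutant arrays and 13.00 and 12.94 on the wild-type arrays (-0.44, adjusted p = 0.0091). Tpm3 had 5 probe sets above the filter: 2 fell, and the differences of the 5 ran from -0.44 to 0.13. The Tpm3 call was lost when they were averaged and without either mutant array. Tropomyosin genes make several isoforms by splicing, and probe sets near the 3′ end may read different ones.

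In the calponin family and caldesmon, 5 of 6 genes fell. Tagln (transgelin, or SM22) read 13.05 and 13.32 in mutant cultures and 13.80 and 13.85 in wild-type cultures (-0.64, SE 0.11, adjusted p = 0.00417). Cnn1, the calponin of differentiated smooth muscle, read 9.80 and 10.07 in mutant cultures and 10.56 and 10.78 in wild-type cultures (-0.74, SE 0.12, adjusted p = 0.0034). Neither gene's groups overlapped. Cnn3, the acidic calponin of non-muscle cells, read 12.11 and 12.26 in mutant cultures and 13.05 and 12.88 in wild-type cultures (-0.78, adjusted p = 0.00115). All 6 Cnn3 probe sets fell, by 0.63 to 0.88.

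Caldesmon (Cald1), which binds actin and tropomyosin and inhibits myosin, read 12.69 and 12.92 in mutant cultures and 13.64 and 13.43 in wild-type cultures (-0.73, SE 0.12, adjusted p = 0.00279). Of its 4 probe sets above the filter 3 fell. Cnn2, the calponin found in many non-muscle cells, read 10.51 and 10.60 in mutant cultures and 10.91 and 11.15 in wild-type cultures (-0.48, adjusted p = 0.0136). Tagln2, the transgelin of non-muscle cells, read 11.64 and 11.59 in mutant cultures and 11.59 and 11.95 in wild-type cultures, so the groups overlapped (-0.16, adjusted p = 0.384). Its other probe set above the filter fell by 0.42, and the probe sets of Tagln2 therefore disagreed in call.

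The largest fall of all members was that of Synpo2 (myopodin), an actin-binding Z-disc and stress-fibre protein. It read 7.05 and 7.03 in mutant cultures, against 8.44 and 8.25 in wild-type cultures (-1.30, SE 0.10, adjusted p = 5.72e-05), or 2.47-fold lower. All 4 Synpo2 probe sets fell, by 0.39 to 1.30. Its relative Synpo (synaptopodin) fell by 0.78 (9.16 on both mutant arrays, 9.84 and 10.05 on the wild-type arrays, adjusted p = 0.00101), a call lost when a dim second probe set was averaged in. Smtn (smoothelin; -0.18, interval -0.42 to 0.07) and Lmod1 (leiomodin 1, which nucleates actin filaments in smooth muscle; -0.28, interval -0.52 to -0.04) did not pass, though both mutant values of each lay below the wild-type ones.

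Of the 8 crosslinkers and adhesion adaptors, 2 fell and 6 did not pass. The share that fell, 25%, was near the 18.7% called lower over all genes tested. Actn1, the alpha-actinin of stress fibres and adhesions, read 11.05 and 11.24 in mutant cultures and 11.78 and 11.74 in wild-type cultures (-0.62, SE 0.10, adjusted p = 0.00325). Its other 2 probe sets did not pass. Pdlim5, a PDZ and LIM protein that binds alpha-actinin, read 10.98 and 11.01 in mutant cultures and 11.96 and 11.68 in wild-type cultures (-0.83, SE 0.11, adjusted p = 0.00122). Of 6 Pdlim5 probe sets above the filter, 5 fell.

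In several of the 6 that did not pass, the wild-type arrays lay far apart. Zyx (zyxin, an adhesion protein that responds to tension) read 9.57 and 9.76 in mutant cultures, between 9.33 and 10.09 in wild-type cultures (-0.04, interval -0.54 to 0.45). The sign for Zyx thus depended on which wild-type array was used: it was -0.42 without replicate 1 (adjusted p = 0.0136) and 0.34 without replicate 2 (adjusted p = 0.0253). Pdlim7 (enigma) read 9.76 and 9.83 in mutant cultures and 10.00 and 10.46 in wild-type cultures (-0.43, adjusted p = 0.0547). It passed when arrays were centred on their medians (adjusted p = 0.0398), with an intensity trend (0.0438), with the stricter filter (0.0493), with the replicate block (0.00108) and without wild-type replicate 1 (7.63e-04).

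Flna (filamin A; -0.33, interval -0.62 to -0.05, adjusted p = 0.0774), Vcl (vinculin; -0.19, interval -0.41 to 0.03) and Csrp1 (a LIM protein of smooth muscle; -0.22, interval -0.50 to 0.06) had mutant values below both wild-type values. Actn4, the other non-muscle alpha-actinin, overlapped (-0.04, interval -0.26 to 0.18).

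Probe sets that the choice of the brightest one had left aside gave the same sign in most cases. The 36 genes had 87 probe sets, and 43 of the 51 others were above the filter, in 19 genes. Of these 43, 25 fell (58.1%), 0 rose and 18 did not pass when every probe set was tested, a fit in which 15.5% of all 23023 probe sets were called lower and 8.81% higher. Among the 35 that belong to genes that fell, 31 were below 0 and 24 of them passed. They were read on the same 4 arrays, so they are not further replicates.

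**Figure D4:**
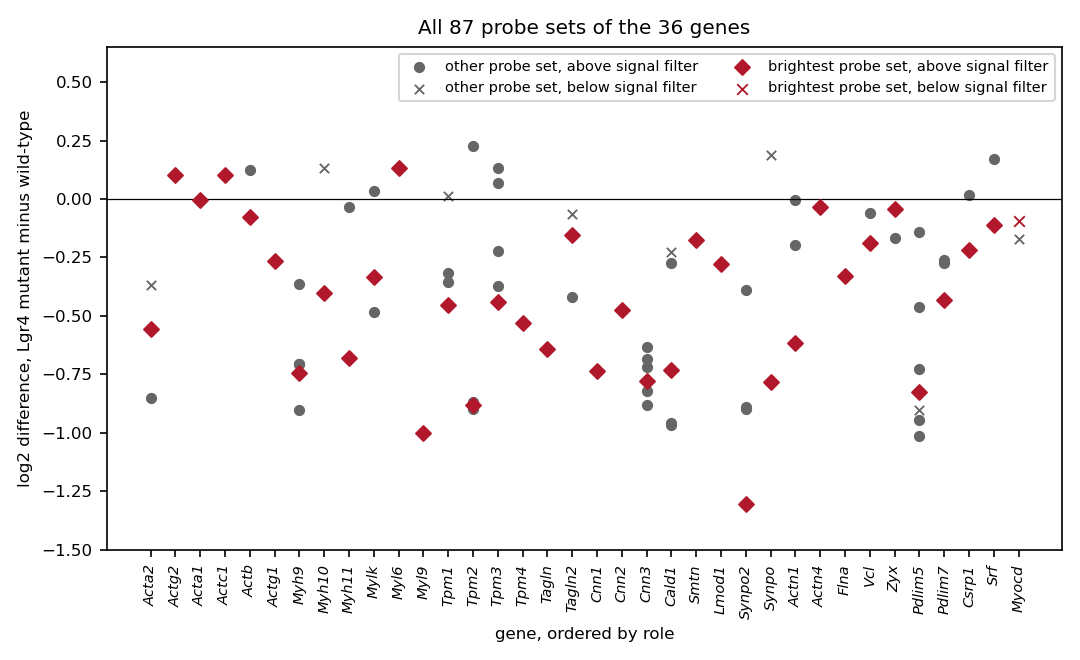
Log2 difference between Lgr4 mutant and wild-type cultures (y axis) for each of the 87 probe sets of the 36 genes (x axis, ordered by role). Red diamonds are the brightest probe set of a gene, grey circles the others, and crosses those below the signal filter; all 6 probe sets of Cnn3, all 5 of Myh9 and all 4 of Synpo2 lie below 0.

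Other genes of the contractile machinery were lower on balance. A list of contractile and stress-fibre genes outside the 36 had 42 genes on the array, 5 of them below the filter. Of the 37 tested, 14 fell (37.8%), 3 rose (8.11%) and 20 did not pass (median -0.25). Over all genes tested, 18.7% were called lower and 11.1% higher. The largest falls were those of the integrin subunits Itga1 (-1.16, SE 0.14, adjusted p = 6.88e-04) and Itga8 (-1.0) and the LIM protein Csrp2 (-0.96). The genes that rose were Ldb3, a Z-disc protein (0.85, SE 0.15, adjusted p = 0.00466), Sspn (sarcospan, 0.43) and Smtnl2 (0.33). The calls for Sspn and Smtnl2 were lost without either mutant array, with differences of 0.39 and 0.46 for Sspn and of 0.33 and 0.32 for Smtnl2. That for Sspn was also lost when its probe sets were averaged (0.12, adjusted p = 0.491).

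Of 16 other Srf or YAP target genes tested, 10 fell (62.5%), 0 rose and 6 did not pass (median -0.49). At an unadjusted p under 0.05 in limma, 12 were lower and 0 higher. Over all genes tested, 18.7% were called lower and 11.1% higher, or 26.4% and 15.4% at this unadjusted p. Ankrd1, a stretch-responsive ankyrin repeat protein, read 6.26 and 6.53 in mutant cultures and 7.81 and 7.85 in wild-type cultures (-1.44, SE 0.11, adjusted p = 5.31e-05). Ccn1, a matricellular protein, fell by 1.28 (adjusted p = 4.65e-05) and Vgll3, a TEAD cofactor, by 1.24 (adjusted p = 3.18e-04). For Ankrd1, Ccn1 and Vgll3 no mutant value reached a wild-type value.

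Fibroblast and macrophage markers were lower on balance, like the contractile genes, and adipocyte markers were higher. The part of these cell types in the result was not tested. Over all genes tested, 18.7% were called lower and 11.1% higher, or 26.4% and 15.4% at an unadjusted p under 0.05 in limma. Of 15 tested myofibroblast and fibroblast markers 14 fell and 0 rose (median -0.62; also 14 and 0 at an unadjusted p under 0.05 in limma), among them Thy1 (-2.17), Cthrc1 (-1.61) and the matrix protein Tnc (-1.18). Their summed signal off the log scale ran from 109386 to 114307 in mutant and from 154731 to 159185 in wild-type cultures. All 13 adipocyte markers rose (median 2.92), with sums of 132168 to 134182 in mutant and 42913 to 45404 in wild-type cultures. Of 14 macrophage markers 7 fell and 0 rose (9 and 0 at an unadjusted p under 0.05 in limma), with sums of 108977 to 109914 in mutant and 127947 to 136492 in wild-type cultures.

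Markers of pericytes and vascular smooth muscle outside the contractile genes went both ways. Of 11 tested, 5 rose (45.5%) and 2 fell (18.2%), with a median of 0.31. The share that fell was near the 18.7% called lower over all genes tested, of which 11.1% were called higher. Another 2 of the 13 on the array (Higd1b and Olfr78) were below the filter. Rgs5, a pericyte marker, fell by 2.09 and its mutant mean (5.66) was below the filter, and the receptor Pdgfrb fell by 0.53. Steap4 (2.96), Mcam (0.92), Abcc9 (0.62), Cspg4 (0.39) and Cox4i2 (0.31, adjusted p = 0.049) rose; the last 2, Cdh5, Vwf and Krt8 were named after their values were seen. The Pdgfrb call was lost without mutant replicate 1 (adjusted p = 0.103). The summed signal of all 13 on the array ran from 13003 to 13504 in mutant and from 9364 to 10554 in wild-type cultures. Steap4 alone set that direction: without it, a sum added after the data were seen, the values were 8435 and 8758 in mutant and 8688 and 10026 in wild-type cultures, and the groups overlapped.

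Skeletal and cardiac muscle markers bear on Acta1 and Actc1. Of 22 on the array, 17 were below the filter, including Myod1, Myog, Myh1, Ttn, Tnnt2 and Myh6. The 5 that were tested gave 0 calls in either direction (0 at an unadjusted p under 0.05 in limma). The summed signal of all 22, those below the filter included, was 1163 to 1170 in mutant and 1088 to 1142 in wild-type cultures. Of 11 endothelial markers tested, Cdh5 rose (0.42) and Vwf fell (-0.40), with a mutant mean for Vwf of 5.99 that was below the filter. Each was 9.09% of those tested, beside 11.1% called higher and 18.7% called lower over all genes tested. Of 5 mesothelial markers tested, 0 passed (at an unadjusted p under 0.05 in limma 1 was higher, Krt8, and 0 were lower). Sums were taken over all genes of a list on the array, those below the filter included. For the 12 endothelial genes they were 1985 to 2207 in mutant and 1821 to 1938 in wild-type cultures. For the 10 mesothelial genes they were 1113 to 1148 in mutant and 1105 to 1251 in wild-type cultures. Tie1 among the first, and Msln, Krt18, Lrrn4, Gpm6a and Bnc1 among the second, were below the filter.

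**Figure D5:**
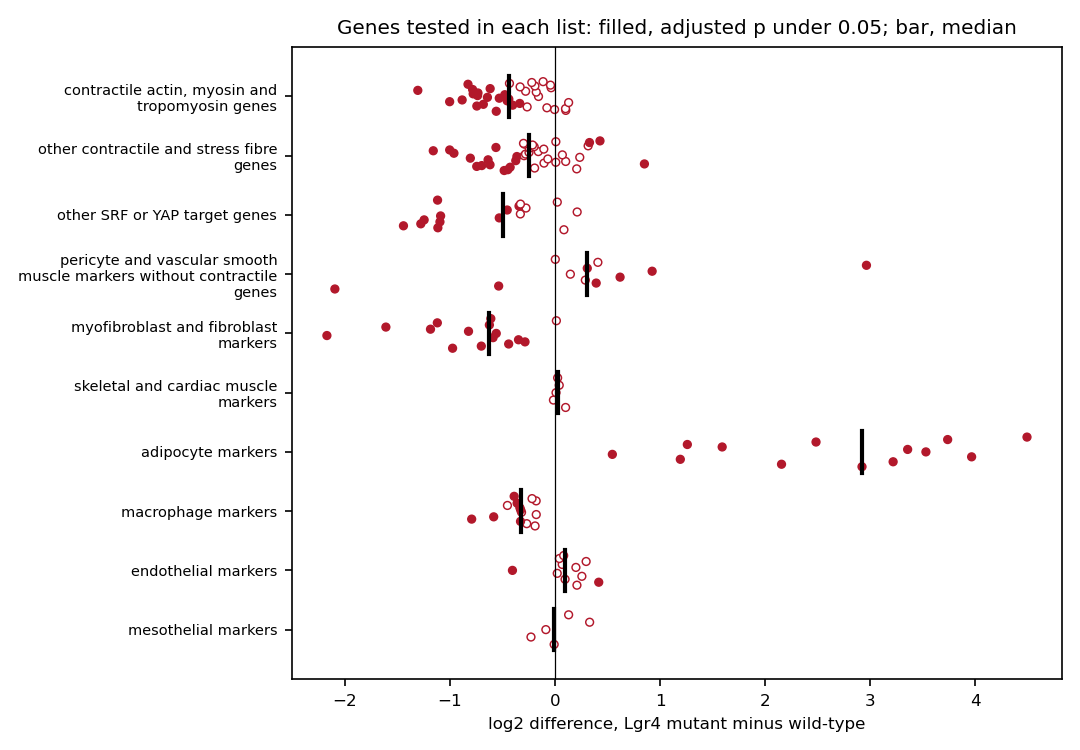
Log2 difference between Lgr4 mutant and wild-type cultures (x axis) for the tested genes of each list (rows); each point is a gene, filled points passed an adjusted p of 0.05, and the bar is the list's median. The contractile genes (median -0.43) and the fibroblast markers (-0.62) lie mostly left of 0, the adipocyte markers (2.92) right of 0, and the pericyte and vascular smooth muscle markers on both sides.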

How the data were processed

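The deposited values were log2 signals per probe set on 4 Affymetrix 3′ arrays (labelled from 500 ng of total RNA, per the labels' protocols), made by the authors with Partek 6.6 and RMA, per the submitters' processing notes. RMA equalises array distributions and compresses differences near background and saturation. Arrays correlated at 0.9977 within the mutant pair, 0.9954 within the wild-type pair and 0.9822 to 0.9867 across pairs. That the scale is log2 follows from the range of the values.

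Control probe sets were left out. Names came from the platform's annotation, with RefSeq (GRCm38.p6) for current symbols. Per gene the brightest of its 1-gene probe sets entered the fit if its 4-array mean was above 6.13, the 40th percentile over probe sets. The fit used limma 3.58.1 under R 4.3.3 (lmFit, eBayes; 2-sided; Benjamini-Hochberg over 13173 genes), tested on simulated data. Differences are mutant minus wild-type, and each ± is an SD over 2 arrays. Precision is limited by the number of arrays. The members and lists were chosen with earlier results of these data known. Named outside the 36 by rule were Lgr4, the adipocyte markers Pparg and Adipoq, and at most the 3 largest called rises and falls of the contractile, Srf or YAP target, fibroblast and pericyte lists. Other genes were named after their values were seen. Plin1 and 10 other listed genes were not analysed here, and 1 list is not reported here. Alternatives were other normalization, filters, probe-set summary, variance trend, replicate block and left-out arrays.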

Additional observations from a re-analysis of the deposited data

How the results depend on the processing

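With all 4 arrays, 15 (all probe sets of a gene averaged) to 22 (replicate block) of the members were called lower and 0 higher under the 8 alternatives. The share called lower over the whole array moved too, to 16.5% on averaging and 23.4% with the replicate block. It ran from 12.7% (no filter) to 24.3% (stricter filter), against 18.7% in the main fit. All 19 genes that fell kept that call in 7 of the 8 alternatives. Averaging ended the calls of Myh10, Mylk, Tpm3 and Synpo and gave a members' median of -0.28. Leaving out 1 array in turn gave 10 to 26 members lower, 0 to 1 higher (Zyx, which ran from -0.42 without wild-type replicate 1 to 0.34 without wild-type replicate 2), medians of -0.44 to -0.37 and 1851 to 6349 calls over all genes. Among the left-out arrays, calls of Acta2, Myh11, Tpm1, Tpm4, Tagln and Cnn2 ended only without mutant replicate 1. Those of Myh10, Mylk and Tpm3 ended without either mutant array. With 1 array left out, the spread within groups came from the pair left whole. The median absolute difference over probe sets was 0.1328 within the wild-type pair and 0.0904 within the mutant pair. What part this played in the lost calls was not tested. A second quantile normalization or centring changed the share of higher calls over all genes to 44.1% or 30.7%, against 37.1%. The Mrtfb difference changed sign on averaging its probe sets (0.057; adjusted p = 0.653). With the replicate block 4879 genes were called, and Pdlim7, Flna and Lmod1 were added among the members. The labels do not say whether same-numbered arrays share anything besides a number. The deviations of these arrays correlated at 0.16 over genes, which does not settle it. RMA values near the top (Actb) or near background (Myocd) limit what can be seen.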
